A study of Mus musculus with 2 samples.

Results

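The cytosolic ribosomal protein genes encode the protein part of the ribosome, the particle that makes every protein of the cell. They were taken from the deposited TPM (RSEM's measure of a transcript's level, given per transcript length and scaled to the library) by their symbols: Rpl or Rps and a number, with a trailing a, x, y or l allowed, together with Rplp0, Rplp1, Rplp2 and Rpsa. Rps6 kinases and names with -ps were left out. This gave 81 of 24054 genes, 49 of the large and 32 of the small ribosomal subunit, and 78 of the 81 averaged at least 1 TPM over both libraries.

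The samples were livers of male C57BL/6 mice of 8 to 12 weeks, either Pgrmc1 KO (Pgrmc1 -/Y) or wild type (WT). Pgrmc1 is an X-linked gene for a heme-binding membrane protein, and the KO mice lacked it in the whole body after Sox2-Cre, active from the early embryo, removed exons flanked by loxP sites. By the study's methods, the targeted allele was made in C57BL/6N embryonic stem cells. RNA of several mice of a genotype (2.5 μg from each) was pooled into 1 library, so there were 2 libraries and no replicates. The design asks how liver mRNA levels differ with and without Pgrmc1. No p-value or replicate spread can be given, and the intervals below cover counting error only.

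Pgrmc1 itself was at 0.68 TPM in KO against 949 TPM in WT, a log2 difference of -9.14. Both libraries had liver markers, with albumin (Alb) at 47242 TPM in KO against 49729 TPM in WT. The authors' second table, of mean expression per genotype, held 79 of the members among 16318 genes, and its values came to 22086692 estimated reads in KO and 29710419 in WT. Changes are log2((KO + 1)/(WT + 1)), on TPM unless the authors' means are named. This scale understates the change of low genes.

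A cytosolic ribosome has 1 copy of nearly every one of these proteins, so their mRNAs are made in like amounts in most cells. The large subunit holds the catalytic centre that joins amino acids and the tunnel through which the new chain leaves, and the small subunit holds the mRNA and reads its codons. Most of these mRNAs begin with a run of pyrimidines, the 5′ terminal oligopyrimidine (TOP) motif, through which the kinase mTORC1 and the protein Larp1 control their translation. The liver makes most proteins of the plasma, and its cells are rich in ribosomes.

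Annotated starts from RefSeq (GRCm38.p6) were read for a pyrimidine run. Windows of 30 bases held 15 before and 15 from the start site on. A run of at least 5 C or T had to overlap the 3 bases before the start or the first 3 from it on. Such a run was found for 29 of the 60 members with a window (31 of 72 windows). The share of all genes under this rule was not taken, so the count cannot be read as a trait of the members. The windows of 4 members with such a run, in capitals, and of Rps26 and Rps2, which have none by this rule, are shown to give both kinds. Rps26 and Rps2 do have a run of at least 5 C or T further downstream, in Rps26 directly after the bases searched. They were chosen among the genes described below.
Rps6, chr4:86857353-86857382, minus strand: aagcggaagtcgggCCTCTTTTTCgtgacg
Rplp2, chr7:141447636-141447665, plus strand: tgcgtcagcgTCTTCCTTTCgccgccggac
Rpl38, chr11:114668565-114668594, plus strand: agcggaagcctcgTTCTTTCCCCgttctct
Rps27, chr3:90213634-90213663, minus strand: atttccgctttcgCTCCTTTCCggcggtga
Rps26, chr10:128626492-128626521, minus strand: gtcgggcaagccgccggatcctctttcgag
Rps2, chr17:24720048-24720077, plus strand: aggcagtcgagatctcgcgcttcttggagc

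Of the 81 members, 60 had a promoter in the RefSeq table used here. A run of at least 8 C or T on the sense strand within 40 bases of an annotated start was found for 47 of the 60 (78.3%), and for 32.6% of all 27025 genes with a promoter. In windows from 250 bases before to 50 after the start, searched on both strands, CCGGAA, the core of ETS family sites, was in 55.0% of the members and 16.7% of all genes. GGGCGG, the GC box, was in 36 of the 60 members and 38.2% of all genes, and ATGGCGG, which holds a core of YY1 sites and shares its last letters with the GC box, was in 16.7% of the members and 4.69% of all genes. TATAAA, the TATA box, was in 6 of the 60 members and 15.7% of all genes. A match of letters is a description of the window and not a bound site.

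The members were among the abundant mRNAs of both livers. Their median was 409 TPM in KO against 397 TPM in WT, with the middle 50% between 286 and 509 TPM in KO and between 271 and 510 TPM in WT. Together they made up 3.20% of the TPM in KO and 3.13% in WT. The highest level in both libraries was that of Rpl41, which encodes the shortest ribosomal protein, at 1066 TPM in KO against 983 TPM in WT. By the mean of both libraries Rpl10, a large subunit protein that joins late in its assembly, came next, at 877 TPM in KO against 938 TPM in WT. Rps2, a small subunit protein at the mRNA entry site, was at 902 TPM in KO against 843 TPM in WT, above Rpl10 in KO and below it in WT. Rpl38 was at 764 and 794 TPM and Rplp1 of the stalk at 799 and 728 TPM, in KO and WT. Of these 5, 3 were higher in KO and 2 (Rpl10 and Rpl38) in WT.

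**Figure D1:**
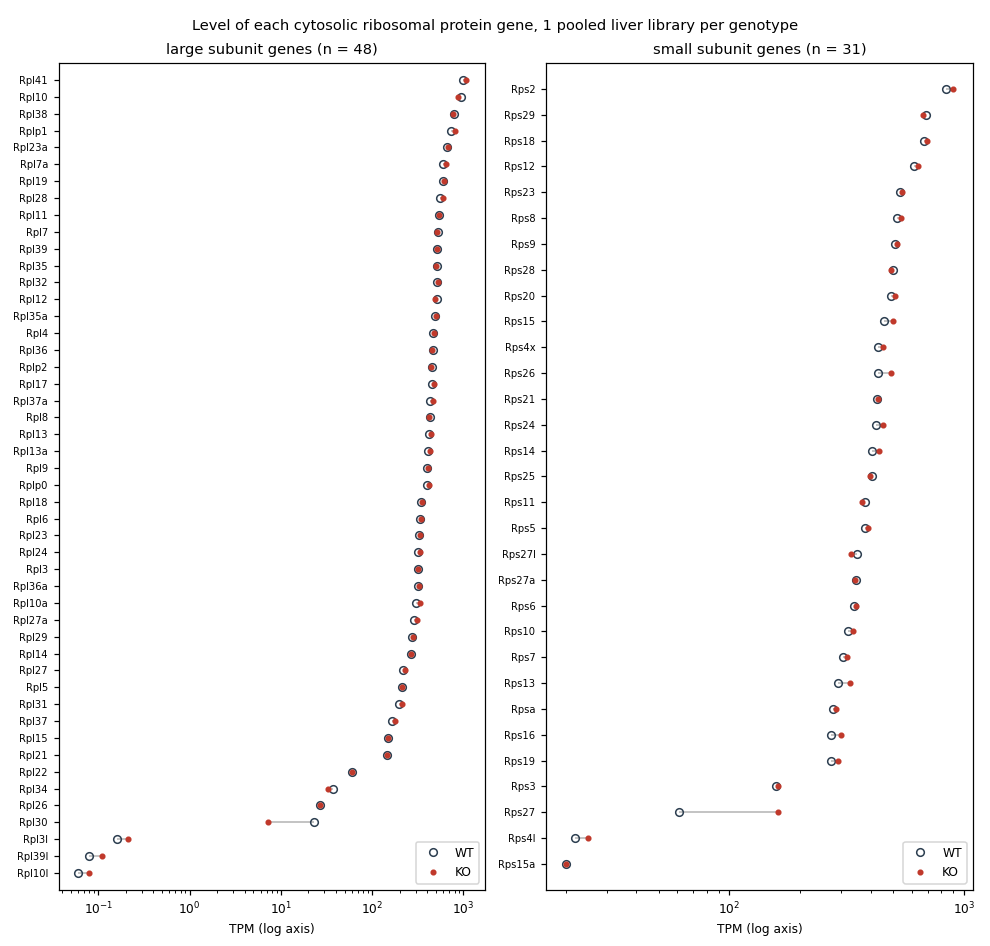
TPM of 79 of the 81 members in the WT (open circles) and KO (filled circles) pooled libraries, on log axes, ordered by the WT level within each subunit. Most pairs of circles touch, Rpl30 and Rps27 are the 2 that stand apart, and Rpl3l, Rpl39l and Rpl10l are below 1 TPM in both libraries.

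Rpl3l, Rpl10l and Rpl39l, which are known from muscle and testis, were the 3 members under 1 TPM. Rpl3l was at 0.21 TPM in KO against 0.16 TPM in WT, while Rpl3, its broadly expressed counterpart, was at 317 TPM in both. Rpl10l was at 0.08 and 0.06 TPM and Rpl39l at 0.11 and 0.08 TPM in KO and WT. At these levels no difference between the genotypes was detectable.

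Between the genotypes the members differed by little, and most of them were slightly higher in KO. The median log2 change was 0.04, with the middle 50% of them between 0.00 and 0.09, whereas over all 11623 genes averaging at least 1 TPM the median was -0.01. Of the 78 members, 59 (75.6%) were above 0, against 45.8% of all genes, and 19 (24.4%) were below 0, against 53.8%. In the authors' means 71 of the 78 were above 0, beside 5666 of 11543 genes. The summed TPM of the members was 32128 in KO and 31110 in WT, a ratio of 1.03. The TPM of all genes summed to 1005325 in KO and 994702 in WT, and this difference is part of the ratio and of the changes in TPM. As a share of these totals the members held 3.20% in KO and 3.13% in WT. The median was 0.04 for the 46 large subunit genes, with 33 above 0, and 0.05 for the 32 small subunit genes, with 26 above 0. Among all 1013 genes averaging at least 100 TPM, the median was 0.00 and 49.9% were above 0. In bulk RNA of a liver, fewer cells of a type and less RNA per cell cannot be told apart.

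Changes past a fold of 1.4 or 0.6 were rare among the members. One member (Rps27) passed 1.4, where 1.21% of all genes did, and 1 (Rpl30) was under 0.6, where 0.301% did. Both have a near-identical copy of higher TPM among the listed genes, described below. The other 76 lay within 0.2 of 0 on the log2 scale, with Rpl34 the lowest of them at -0.17, and 61 lay within 0.1. Of all genes, 81.4% lay within 0.2.

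For each gene an interval of the ratio of the authors' means was taken from the estimated reads, with 95% limits (Clopper-Pearson). It lay wholly above 0 for 43 of the 78 members (55.1%), against 11.7% of the 11543 genes with such an interval. It lay wholly below 0 for 2 members (Rpl10 and Rpl30), against 13.4%. The members had many reads, a median of 2913 in KO and 3807 in WT, so that their intervals were narrow, with a median half-width of 0.07. Among the genes averaging at least 100 TPM, 35.0% were wholly above 0. These counts rest on the authors' means alone, and no interval was taken from TPM. Changes in these means lay above those in TPM by a median of 0.03 for the 74 members without an abundant copy, against 0.01 over all genes. An interval off 0 says that these 2 libraries differed, not that the genotypes did.

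**Figure D2:**
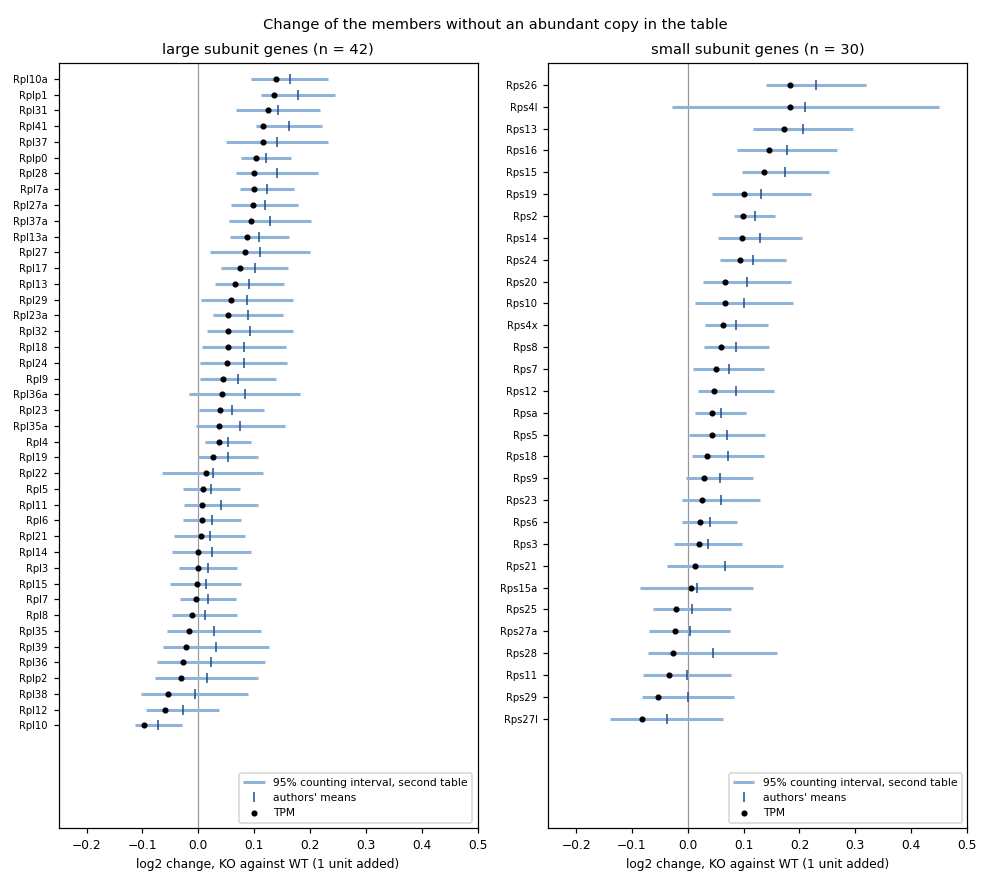
Log2 change of 72 members without an abundant copy, from TPM (points) and from the authors' means (ticks), with the 95% counting interval of the latter (bars), by subunit. Most points lie to the right of 0 and none passes 0.2 on either side, and the ticks lie to the right of the points.

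Several of the members highest in KO were genes of the small subunit. Rps26, which lies by the mRNA where it leaves the small subunit, was at 487 TPM in KO against 429 TPM in WT, a log2 difference of 0.18 (interval 0.14 to 0.32). Rps13, a small subunit protein, was at 326 TPM in KO against 289 TPM in WT, a log2 difference of 0.17 (interval 0.12 to 0.30). Both were higher in KO by a difference larger than counting error.

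Rps16, also of the small subunit, was at 300.2 TPM in KO against 271 TPM in WT, a log2 difference of 0.14 (interval 0.09 to 0.27). Rps4l, an autosomal paralog of Rps4x, was a low member at 24.97 TPM in KO against 21.89 TPM in WT. Its log2 change of 0.18 had an interval of -0.03 to 0.45 that covers 0, so that no difference was detectable at this depth. Rps4x, the X-linked main form, was at 451 and 432 TPM, a log2 difference of 0.06 (interval 0.03 to 0.14).

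Fewer members were lower in KO. Rpl10 was lower in KO with a log2 difference of -0.10 (interval -0.11 to -0.03). Rps27l, a paralog of Rps27 known as a target of p53, was at 330 TPM in KO against 349 TPM in WT, a log2 difference of -0.08 (interval -0.14 to 0.06). Rpl12, at the base of the stalk, was at 490 TPM in KO against 510 TPM in WT, a log2 difference of -0.06 (interval -0.09 to 0.04). Rpl38, known for its part in translating Hox mRNAs in the embryo, had a log2 difference of -0.05 (interval -0.10 to 0.09). Of these 4, only Rpl10 had an interval off 0.

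The P stalk is the flexible arm of the large subunit that recruits elongation factors. Its scaffold Rplp0 was at 424 TPM in KO against 394 TPM in WT, a log2 difference of 0.10 (interval 0.08 to 0.17). The acidic stalk protein Rplp1 had a log2 difference of 0.14 (interval 0.11 to 0.25). Its partner Rplp2, with which it pairs in the stalk, was at 444 TPM in KO against 454 TPM in WT, a log2 difference of -0.03 (interval -0.08 to 0.11). So Rplp0 and Rplp1 were higher in KO, and the intervals of Rplp2 and Rpl12 covered 0.

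Rpl5 and Rpl11 bind 5S rRNA, and free of the ribosome they bind Mdm2, the regulator of p53. Rpl5 was at 212 TPM in KO against 211 TPM in WT. Rpl11 was at 545 and 542 TPM. Both had a log2 difference of 0.01, with intervals of -0.03 to 0.07 and -0.03 to 0.11.

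Rpl4, Rpl17 and Rpl39 line the tunnel for the new protein chain. Rpl4 was at 479 TPM in KO against 467 TPM in WT (log2 change 0.04, interval 0.01 to 0.09). Rpl17 was at 478 and 454 TPM (log2 change 0.08, interval 0.04 to 0.16). Rpl39 was at 509 and 517 TPM (log2 change -0.02, interval -0.06 to 0.13). Rpl39 is at chrX:37082518-37085222 (GRCm38), 476 kb from the deleted Pgrmc1 at chrX:36598193-36606079. The 4 X-linked members (Rpl10, Rpl36a, Rpl39 and Rps4x) had 2 changes above and 2 below 0.

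Along the path of the mRNA through the small subunit, Rps2 had a log2 difference of 0.10 (interval 0.08 to 0.16). Rps3, at the mRNA entry site, was at 161 TPM in KO against 158.5 TPM in WT, with a log2 difference of 0.02. Rpsa, also known as the laminin receptor, was at 286 and 277 TPM, a log2 difference of 0.04 (interval 0.01 to 0.10). Rps28, near the mRNA exit, was at 490 TPM in KO against 499 TPM in WT, a log2 difference of -0.03 (interval -0.07 to 0.16). Of the 5 genes on this path, Rps26 included, 3 had an interval above 0 and none below. An interval above 0 was found for 55.1% of all 78 members and 11.7% of all genes, so this count does not set the path apart from the other members.

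Rps6, the substrate of S6 kinase, was at 346 TPM in KO against 341 TPM in WT, a log2 difference of 0.02 (interval -0.01 to 0.09). Rps19, the gene most often mutated in Diamond-Blackfan anemia, was at 290 TPM in KO against 270.2 TPM in WT, a log2 difference of 0.10 (interval 0.04 to 0.22). Rps27a, made as a fusion with ubiquitin, was at 342 and 348 TPM, a log2 difference of -0.02 (interval -0.07 to 0.08). Of these 3, Rps19 alone had an interval off 0.

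The 2 changes past a fold were in genes that share nearly all of their coding sequence with another listed gene. The members' coding sequences were compared with transcripts of the listed genes (GENCODE, GRCm38). At an identity of at least 95% over at least 90% of the coding sequence, 14 copies of 13 members were found. Of these copies 4 were above 100 TPM in WT, all with 1 exon: Gm15772 (of Rpl26), Gm12191 (of Rpl30), Rpl34-ps1 (of Rpl34) and Rps27rt (of Rps27). Gm15772 and Gm12191 are annotated as transcribed pseudogenes, and Rpl34-ps1 and Rps27rt as protein coding. The levels of gene and copy depend on how RSEM divided the reads between them, which was not tested. The other 10 copies were between 0.12 and 35.5 TPM in WT.

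The stretches of coding sequence below show how alike gene and copy are. The first base that differs is in capitals, and positions are counted from 1 at the start of the coding sequence. Gm15772 differs from Rpl26 at C177T and T288C, Gm12191 from Rpl30 at G96A, and Rpl34-ps1 from Rpl34 at T132C and C318G. Rps27rt has no difference from Rps27 over its 255 coding bases, so no capital is shown.
Rpl26, bases 163 to 191: gttcaggttgttcgCggacactacaaagg
Gm15772: gttcaggttgttcgTggacactacaaagg
Rpl30, bases 82 to 110: gtgctgggctacaaGcagactctgaagat
Gm12191: gtgctgggctacaaAcagactctgaagat
Rpl34, bases 118 to 146: aaagcacctaaatcTgcatgtggcgtgtg
Rpl34-ps1: aaagcacctaaatcCgcatgtggcgtgtg
Rps27, bases 1 to 29: atgcctctcgcaaaggatctccttcatcc
Rps27rt: atgcctctcgcaaaggatctccttcatcc

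Rps27 has 4 exons at chr3:90212667-90213648, and Rps27rt lies at chr9:114982366-114982739. Rps27 was at 161 TPM in KO against 61.0 TPM in WT, a log2 difference of 1.39. Rps27rt was at 639 TPM in KO against 673 TPM in WT, a log2 difference of -0.07. Their sum was 801 TPM in KO against 734 TPM in WT, a log2 difference of 0.13, so the summed level was under the fold of 1.4. In the authors' means Rps27 stood at 35.2 in KO and 17.5 in WT, which is 30.3 and 20.3 estimated reads, and Rps27rt had a change of 0.19, opposite in sign to its TPM. The sum had a change of 0.20 in the authors' means (interval 0.11 to 0.28).

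Rpl30 (chr15:34440505-34443276) has 4 exons, and Gm12191 is at chr11:49678620-49679143. Rpl30 was at 7.19 TPM in KO against 23.1 TPM in WT, a log2 difference of -1.56. Gm12191, to which nearly all of the signal was assigned, was at 435 TPM in KO against 448 TPM in WT, a log2 difference of -0.04. Their sum was 442 TPM in KO against 471 TPM in WT, a log2 difference of -0.09, and in the authors' means the sum had an interval of -0.15 to 0.02. The 26.9 reads of Rpl30 in KO and 147.9 in WT set its interval, -2.67 to -1.42, which covers no error in assigning reads to gene or copy.

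Rpl34 (chr3:130726827-130730398) was at 32.8 TPM in KO against 36.8 TPM in WT, a log2 difference of -0.17. Its copy Rpl34-ps1 (chr6:71124589-71125001) was at 396 TPM in KO against 364 TPM in WT, a log2 difference of 0.12. The sum had a log2 difference of 0.09, so its direction was opposite to that of Rpl34 alone. Rpl26 (chr11:68901566-68904534) was at 27.0 TPM in KO against 26.6 TPM in WT, and Gm15772 (chr5:3236390-3236928) at 632 and 610 TPM. Their sum had a log2 difference of 0.05 (interval 0.02 to 0.15 in the authors' means). Each of the 4 sums lay within 0.2 of 0, and with members summed with all their copies no member passed either fold.

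**Figure D3:**
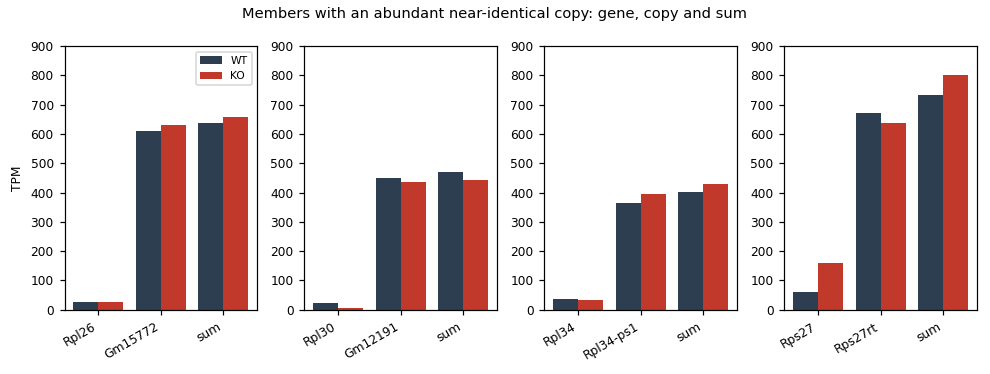
TPM of the 4 members with an abundant near-identical copy, of the copy and of the sum of the gene and all its copies, in WT and KO (bars from 0). The copy holds most of each sum, and the large relative differences of Rpl30 and Rps27 are small beside the sums.

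The other paralogs were also set side by side. Rpl36a was at 325 TPM in KO against 316 TPM in WT, and its counterpart Rpl36al at 418 and 447 TPM, with log2 changes of 0.04 and -0.10. Rpl22 was at 60.6 and 60.04 TPM and Rpl22l1 at 79.5 and 84.0 TPM, with log2 changes of 0.01 and -0.08. Rpl7 was at 520 and 522 TPM and Rpl7l1 at 34.2 and 36.2 TPM, with log2 changes of -0.00 and -0.08. The intervals of Rpl36al (-0.14 to 0.02), Rpl22l1 (-0.24 to 0.17) and Rpl7l1 (-0.18 to 0.04) covered 0, so that no difference of these 3 was detectable at this depth.

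The 2 deposited tables gave like but not equal changes. Among the 74 members without an abundant copy, the change in the authors' means was above that in TPM for all 74, by 0.01 to 0.07 with a median of 0.03. Only 7 of the 78 members were below 0 in the authors' means, where 19 were in TPM, and the median log2 change there was 0.07. Across 73 of these members, the difference between the tables was larger for shorter mRNAs (Spearman rho -0.77, Pearson r -0.70 on log2 length), a description across genes of the same 2 libraries. It was a median of 0.04 for the 21 members with an mRNA under 600 bases, 0.03 for 29 members of 600 to 1000 bases and 0.02 for 23 members of at least 1000 bases. Length is that of the shortest RefSeq-matched mRNA, which need not be the length behind the TPM, so the classes are approximate. Rps20, at 3706 bases, had 5.41 units of the authors' means per TPM in KO, and Rps15, at 500 bases, had 5.74. Rps28, with a short mRNA, went from -0.03 in TPM to 0.04 in the authors' means. Rpl15, with an mRNA of 1922 bases, went from -0.00 to 0.01. Over all 11543 genes in both tables the median difference was 0.01. The change in TPM itself had a rho of -0.05 with length.

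**Figure D4:**
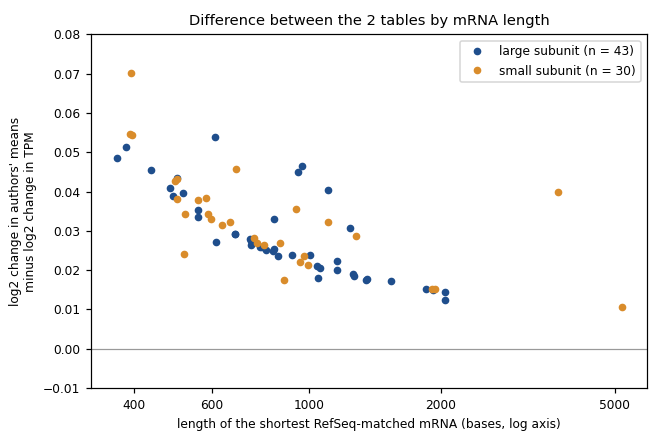
Change in the authors' means minus change in TPM (log2) against the length of the shortest RefSeq-matched mRNA (bases, log axis) for 73 members, by subunit. All points are above 0, and the short mRNAs tend to have the larger differences.

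Rps15a was the lowest member without an abundant copy among the small subunit genes, at 20.08 TPM in KO against 20 TPM in WT. Its estimated reads were 1405 in KO and 1877 in WT, near the 1078 and 1412 of Rps28, which was at 490 TPM. The shortest RefSeq-matched mRNA of Rps15a has 5179 bases, the longest of the members. The gene length used for its TPM was not given in the sources used here.

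Of 11 genes sought that encode ribosomal proteins or close relatives and are outside the symbol rule, 7 were listed. Fau, which encodes a small subunit protein, was at 465 TPM in KO against 449 TPM in WT, and Rps3a1 at 516 and 517 TPM. Of the 7, 2 were above 0 and 5 below, with a median of -0.07. The 5 include Rps3a1 at -0.00 and Rps27rt, the copy of Rps27, whose TPM change is this median. By interval, 3 of the 7 were above 0, Rps27rt (0.10 to 0.27) among them, and 0 below. Of all genes, 11.7% had an interval above 0. In the authors' means the median of the 7 was 0.02.

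Other parts of the ribosome system were taken from lists. The 76 mitochondrial ribosomal protein genes, which serve the separate ribosome of the organelle, had a median log2 change of -0.01, with 36 above 0, 40 below and none past a fold. They ranged from -0.25 (Mrpl40) to 0.26 (Mrpl36). The 16 other TOP mRNAs, mainly translation factors, had a median of -0.00, with 7 above 0 and none past a fold. Eef1a1, the elongation factor that brings tRNA, was at 4211 TPM in KO against 4227 TPM in WT. The lowest change of this list was that of Nap1l1 (-0.17) and the highest that of Eif3h (0.06).

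Ribosome assembly factors (43 genes) had a median log2 change of -0.00, from -0.30 for Ltv1, which acts in small subunit export, to 0.25 for Grwd1, a histone and ribosome assembly factor. None passed a fold. RNA polymerase I and its factors, which make rRNA, had a median of 0.02 over 13 genes, from -0.07 (Ttf1) to 0.14 (Ubtf). The 16 genes of mTORC1 and regulators of ribosomal genes had a median of -0.01 and 8 above 0. Rheb, the activator of mTORC1, had the lowest change of the 16 (-0.19). Myc, a transcription factor of ribosome production, was at 5.89 TPM in KO against 3.16 TPM in WT, a log2 difference of 0.73 (interval 0.59 to 1.26), the 1 gene of the 16 past a fold.

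The 8 snoRNA host genes had a median log2 change of -0.02. Snhg7, a low gene, was at 1.49 TPM in KO against 3.19 TPM in WT (log2 change -0.75, interval -2.28 to -0.13). Snhg8 was at 10.1 and 7.14 TPM (log2 change 0.44, interval 0.07 to 0.98). Snhg7 was the only one of them past a fold, under 0.6, where 0.301% of all genes were.

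**Figure D5:**
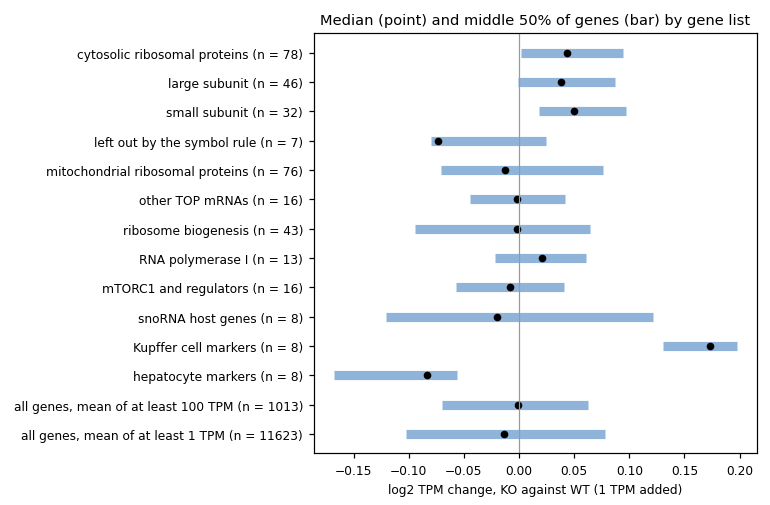
Median log2 TPM change (points) and the middle 50% of genes (bars) for the members, their subunits, the lists around the ribosome, 2 marker lists and all genes. The members and both subunits lie right of 0, with a median of 0.04 for all members against -0.01 for all genes.

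Marker genes of liver cell types also had changes off 0, some of them within counting error. The interval lay wholly above 0 for 4 of 8 Kupffer, 2 of 8 hepatocyte and 1 of 7 stellate cell markers. It lay wholly below 0 for 6 of 8 hepatocyte, 2 of 6 endothelial and 3 of 7 stellate cell markers. Of all genes, 11.7% had an interval above 0 and 13.4% below. Among genes averaging at least 100 TPM, where all 8 hepatocyte markers lie, these shares were 35.0% and 24.1%. Apoa1 was above 0 by its interval (0.01 to 0.03), though its TPM change was -0.00. All 8 Kupffer cell markers listed (of 9 sought) were above 0, from 0.10 (Vsig4) to 0.24 (C1qa), with levels of 4.35 to 71.1 TPM in KO and 3.86 to 60.8 TPM in WT and a sum of 355 against 313 TPM. Of 8 hepatocyte markers 7 were below 0, with a median of -0.08, from -0.32 (Tdo2) to 0.09 (Serpina1a), and a sum of 73824 TPM in KO against 77337 TPM in WT. All 6 endothelial markers were below 0, from -0.60 (Lyve1) to -0.04 (Stab2), with a sum of 145 against 161 TPM. Of 7 stellate cell markers 5 were below 0, from -0.53 (Rgs5) to 0.17 (Lrat), with a sum of 183 against 209 TPM.

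Lymphocyte markers were near the floor, with a sum of 8.08 TPM in KO against 8.28 TPM in WT over 8 genes, of which Ptprc (-0.00) and Cd79b (0.42) averaged at least 1 TPM. Of 4 bile duct cell markers at this level, 3 were below 0, from -0.59 (Epcam) to 0.01 (Krt19). Red cell genes summed to 1413 and 1429 TPM, with 2 of 5 above 0, from -0.89 (Hbb-bs) to 0.19 (Hba-a1). Hba-a2 was at -0.14, opposite to Hba-a1, and Hbb-bt at -0.27 with an interval of -0.12 to 0.21. The splitting of reads between these globin genes was not tested. By interval, 2 of the 5 red cell genes were above 0 and 1 below, and 1 of the 4 bile duct cell markers was below. No listed marker was at 0 in either library. The part of cell makeup in the members' changes was not tested.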

How the data were processed

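Liver RNA was pooled by genotype and sequenced as 1 stranded total RNA library each for KO and WT. According to the methods and the submitters' processing notes, reads were converted with CASAVA 1.8.2 and assigned to genes of mm10 with RSEM 1.2.09 and Bowtie. The authors deposited posterior mean TPM per gene (columns summing to 1005325 in KO and 994702 in WT, so that a scaling between libraries is in them; the step was not given in the sources used here). The authors also deposited a second table of normalized mean signal per gene and genotype from EBSeq, here called the authors' means; its columns are headed condition 1 and 2, read as KO and WT because the table is titled KO vs WT and the study's own version of it heads them so. Its columns of posterior probabilities and fold changes hold the authors' own comparison and were not used.

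The members and gene lists were chosen with earlier results of these data known. Log2 changes used 1 added unit and only genes averaging at least 1 TPM. The most frequent low value of the authors' means, 1.16 in KO and 0.860 in WT, was taken as 1 read. Of values up to 20 reads, 93.1% in KO and 92.6% in WT were whole within 0.02, and because RSEM splits reads between genes no count test was run. Clopper-Pearson 95% intervals of the KO to WT ratio were taken from rounded reads and cover counting error only. Copies were found with blastn 2.17.0 on the same strand, for 80 of 81 members with a coding sequence, against 22750 genes, and 1304 listed genes had no transcript under their symbol. Named genes were every member past a fold of 1.4 or 0.6, the 6 highest and 6 lowest changes among members averaging at least 10 TPM, the 6 of highest mean, those whose change differed by over 0.5 between the tables, members of fixed structural groups and paralog pairs, and the highest and lowest gene of each list. Rps28, Rpl15, Rps15a, Rps20 and Rps15 as examples of length, Eef1a1, Fau and Rps3a1 were named after their values were seen. Some genes that this rule names are not reported here, and counts and medians include them. The intervals and calls were run on simulated reads with counting error only. Variation between pools and the splitting of reads between genes were not simulated, so this checks the calculation alone. Alternatives were another pseudocount, other filters, other folds, the second table, summing members with copies, rescaling to the same sum with the 50 most abundant genes taken out, and centring on the median gene. Python 3.11.15 with numpy 2.4.6, pandas 2.3.3 and scipy 1.17.1 was used.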

Additional observations from a re-analysis of the deposited data

How the results depend on the processing

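The median log2 change of the members stayed above 0 under all 9 alternatives, between 0.04 and 0.07, and those of both subunits under all 6. The number of members below 0 was 7 of 78 in the authors' means and 15 after centring on the median gene, and 19 under the other 4 alternatives and as reported. The log2 ratio of summed TPM was 0.05, and 0.072 in the authors' means. With members summed with their copies, an alternative chosen after seeing the data, 0 members passed the fold of 1.4 and 0 the fold of 0.6; 1 member passed each under the other 6. Pgrmc1 had a log2 change of -10.25 with 0.1 TPM added and -10.44 in the authors' means. With copies summed, Rpl30 was at -0.09 and Rps27 at 0.13. Of 109 values for single members, Pgrmc1 not counted, 107 (all but these 2) moved by less than the half-width of the gene's counting interval. Of 36 medians of lists, 35 moved by less than the median half-width over the list's genes, the other being the genes outside the symbol rule; the cause of the differences between tables was not tested. No scaling moved the median of all genes by over 0.1.

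No paired analysis was possible because KO and WT have only 1 pooled library apiece, and for the same reason none was left out. With pooled RNA, the spread between mice is unknown, so a difference between these libraries cannot be told apart from a difference between pools or preparations. Of the 78 counting intervals 33 covered 0, and this count does not measure depth alone. Rpl5 was 1 of them, with 5532 and 7350 estimated reads in KO and WT and a change of 0.01. Over all 78 intervals the median half-width was 0.07, about the size of the median change of 0.07 in the authors' means, from which they were taken. Rps27 and Rpl30, the 2 with under 100 reads, had the widest.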
